A study of Homo sapiens with 58 samples.

Results

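The genes described here are the ZNF genes of human chromosome 19 whose transcripts carried crosslinked tags of HuR, an RNA-binding protein. They were taken from the authors' combined table of peaks, with repeated lines dropped, as every peak on chromosome 19 whose gene symbol is ZNF followed by digits and optional letters, with antisense genes and pseudogenes left out. The rule selected 1971 of 387214 peaks and 178 of 13836 named genes, without reference to any measured value. All 178 are protein-coding in RefSeq. For comparison, the same name rule on the other chromosomes gave 3335 peaks in 185 genes, and chromosome 19 held a further 3389 peaks in 555 other named genes.

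Most ZNF genes of chromosome 19 encode KRAB zinc finger proteins, which bind DNA through tandem C2H2 zinc fingers and recruit the co-repressor TRIM28 (KAP1) through the KRAB domain. TRIM28 brings in the histone methyltransferase SETDB1 and heterochromatin proteins, and many of the targets are transposable elements. The genes arose by repeated duplication and still lie in clusters, so that neighbours resemble each other in sequence. HuR, encoded by ELAVL1, binds U-rich and AU-rich stretches in introns and 3'UTRs. It is mostly nuclear, shuttles to the cytoplasm, is known for stabilising mature mRNAs, and enters stress granules under arsenite.

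The study mapped HuR by CLIP-seq (crosslinking by UV, immunoprecipitation and sequencing) in 58 libraries of Huh-7.5, a human hepatoma line. The 12 fraction libraries came from cells labelled WT without an APEX reaction and formed 4 groups of 3 libraries, namely nuclear mock, nuclear arsenite, cytoplasmic mock and cytoplasmic arsenite. The other 46 came from lines labelled APEX-NLS, APEX-NES and APEX-G3BP1, in which the peroxidase APEX, directed to the nucleus, to the cytoplasm or to the stress granule protein G3BP1, biotinylated its surroundings with biotin phenol and hydrogen peroxide. In each line, mock and arsenite libraries were made without (input) and with an added streptavidin capture. Arsenite groups received 0.5 mM sodium arsenite for 45 min, and all cells were irradiated on ice with 400 and 200 mJ/cm2. The labels do not say how many clones a line represents, nor whether libraries of a group came from separate cultures, so the p-values measure only the spread between these libraries, which may be technical.

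Between 235471 and 673322 tags fell in peaks in the fraction libraries, and between 519 and 484305 in the rest. Among hepatocyte and hepatoma markers, ALB, AFP, APOB, TF, FGB, HNF4A and SERPINA1 carried tags in all 12 fraction libraries, while APOA2 had tags in 9 of 12 and APOA1 and TTR had no peak. Of markers of other cell types, PTPRC (leukocytes) had tags in 11 of the 12, at most 5.46 CPM, COL3A1 in 3, PECAM1 in 1 and COL1A1 in none. The nuclear RNA NEAT1 stood at 384.7 to 440.0 CPM in the nuclear mock and 116.1 to 138.3 in the cytoplasmic mock libraries, and ACTB at 239.1 to 256.5 against 1869 to 2693. After arsenite NEAT1 and ACTB were closer. NEAT1 stood at 436.4 to 626.3 against 200.7 to 280.3 and ACTB at 458.3 to 517.3 against 924.8 to 1164. RPL23 was closer too, at 20.4 to 34.8 against 179.8 to 269.9 in mock and 28 to 31.2 against 90.2 to 124.5 after arsenite. GAS5 and SNHG1, also taken as nuclear RNAs, stayed far apart. GAS5 stood at 443 to 521.9 against 38.3 to 54.8 in mock and 169.6 to 221.8 against 10.2 to 16.7 after arsenite. SNHG1 stood at 461.6 to 491.9 against 30.85 to 52.7 in mock and 188 to 270.6 against 28.9 to 38.1 after arsenite. MALAT1, also a nuclear RNA, overlapped between the fractions under both treatments. It stood at 2347 to 2739 against 2149 to 2708 in mock and 2592 to 3253 against 2403 to 3304 after arsenite. CPM are tags relative to the total by which the authors divided each library. RNA abundance was not measured in these files, so that more transcript in a fraction and more HuR per transcript cannot be told apart in any result given here.

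Introns carried most of the HuR tags on these genes. Of the 1971 peaks, 1246 were annotated as intron and held 12678 of 22695 fraction tags (55.9%), and 443 were annotated as 3'UTR and held 6823 tags (30.1%). The remaining peaks were ncRNA (149), Other (66), 5'UTR (28), transposable element (25) and CDS (14), as the authors' table names these classes. The 3'UTR part of the tags was close to that of ZNF genes elsewhere (27.4%) and to all named peaks (29.9%), whereas the other genes of chromosome 19 had 62.1% of their tags in 3'UTRs. The classes exclude each other only through the authors' final choice, since 199 of the 443 3'UTR peaks also list intron among their labels. A 3'UTR peak was present in 118 genes, an intron peak in 151 and both in 95.

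Tags were concentrated in a few genes. The median gene had 5 peaks, 27 genes had 1 peak, and the median gene held 37 tags over all 12 fraction libraries. The 12 genes with the highest mean level held 48.0% of the fraction tags of the 178. ZNF91, a repressor of SVA retrotransposons, ranked first with 117 peaks, 108 of them intronic, and a mean of 174 CPM over the fraction libraries. It lies at chr19:23305004-23395471 on the minus strand (RefSeq, GRCh38.p14). ZNF714 followed with 81 peaks, 17 in the 3'UTR and 61 in introns, and 127 CPM (chr19:21082203-21125094, plus strand). ZNF254 had 92 peaks and 103 CPM (chr19:24033449-24129968, plus strand). ZNF730 (62.1), ZNF100 (48.3), ZNF431 (45.7), ZNF121 (44.5), ZNF93 (40.5), ZNF253 (34.8), ZNF726 (32.8), ZNF43 (31.7) and ZNF235 (30.5 CPM) completed the 12. ZNF93, a repressor of L1 elements, is thus among the most heavily tagged. By contrast ZNF274, which recruits SETDB1 to the ends of ZNF genes, ranked 90th with 5 peaks and 2.74 CPM, and the imprinted gene ZNF331 ranked 118th with 5 peaks and 1.41. ZNF350, a partner of BRCA1, had no peak.

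Position along the chromosome separated the genes further. Joining genes less than 1 Mb apart gave 10 clusters of several genes and left 5 genes on their own. The cluster from ZNF101 to ZNF254 (chr19:19668153-24129968) held 34 genes, 974 peaks and 58.1% of the fraction tags, and included 10 of the 12 leading genes. The cluster at the long-arm end, from ZNF865 to ZNF584 (chr19:55605647-58418327), held 33 genes, 239 peaks and 13.1% of the tags. Its peaks were more often in 3'UTRs, 91 of 239 against 142 of 974 in the ZNF101 to ZNF254 cluster. How reads matching several of these paralogs were placed is not given in the sources used here, so levels of single genes in a cluster carry that uncertainty. Of the 1971 peaks 137 lay outside the RefSeq span of the gene the authors' table names, 16 of them within another of these genes on the same strand.

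The strongest 3'UTR peaks belonged to both clusters and to ZNF121, which lies outside them. Each peak is 20 nt long by the authors' coordinates. The peak of ZNF121 at chr19:9562872-9562892 (minus strand) collected 316 fraction tags. Its level was 9.69 ± 2.20 CPM in nuclear mock, 23.6 ± 7.38 in cytoplasmic mock, 22.4 ± 5.01 in nuclear arsenite and 30.6 ± 4.95 in cytoplasmic arsenite libraries (SD, n = 3 each). The strongest ZNF714 peak, at chr19:21121872-21121892 (plus strand), held 280 tags and was highest in the cytoplasmic mock libraries (26.1 ± 3.14). The ZNF543 peak at chr19:57330278-57330298 (plus strand) held 222 tags and was lowest in the nuclear mock libraries, at 5.82 ± 2.53 against 15 to 21 in the other 3 groups. Peaks in ZNF100 (166 tags), ZNF587 (159) and ZNF460 (146) came next.

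As a whole, the genes took up a slightly larger part of the HuR tags in the nucleus than in the cytoplasm. In mock cells their peaks held 0.482, 0.473 and 0.464% of all tags in peaks in the nuclear libraries and 0.395, 0.377 and 0.366% in the cytoplasmic libraries. After arsenite the values were 0.505, 0.505 and 0.491% in the nucleus and 0.445, 0.435 and 0.452% in the cytoplasm. The nuclear and cytoplasmic libraries did not overlap under either treatment, and the arsenite libraries lay above the mock libraries in both fractions. The ratio of the mock means was 1.25, but it was 1.78 for introns alone and 0.56 for 3'UTRs alone. No test was run on these sums, because the genes were chosen as a list. For single libraries the 95% Wilson intervals cover counting error only, for example 0.442 to 0.487% for the lowest nuclear mock and 0.375 to 0.417% for the highest cytoplasmic mock library.

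**Figure D1:**
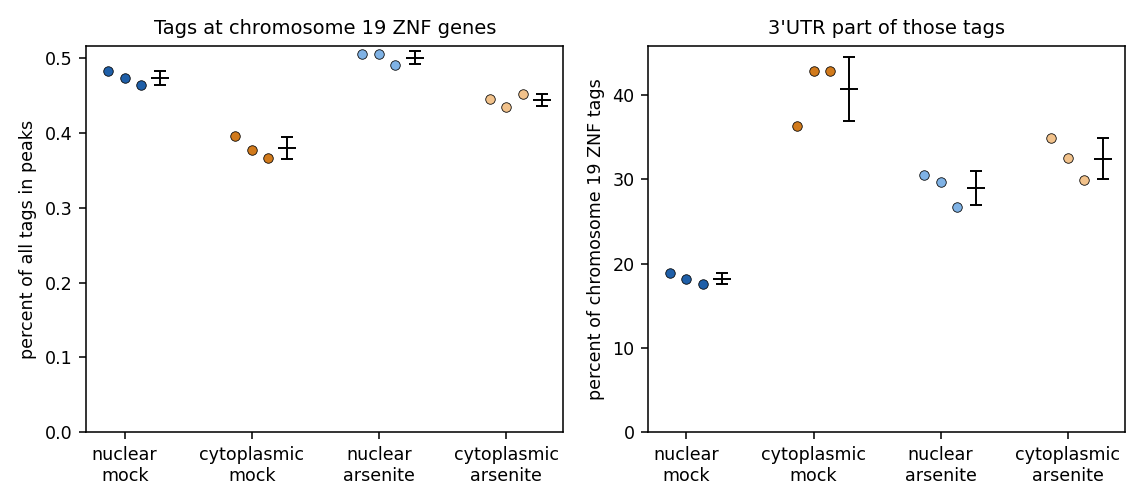
Percentage of all tags in peaks held by the 178 genes, and percentage of their own tags lying in 3'UTR peaks, for each of the 12 fraction libraries (points) with the mean and SD of 3 (bars). The nuclear mock libraries combine a high share of tags with the lowest 3'UTR part, 18.2% on average.

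The split between 3'UTR and intron differed between the groups. In nuclear mock libraries 18.2 ± 0.642% of the genes' tags lay in 3'UTRs, against 40.6 ± 3.8% in cytoplasmic mock libraries (SD, n = 3). After arsenite the fractions were closer, at 29.0 ± 2.04% in the nucleus and 32.4 ± 2.47% in the cytoplasm. All tags in peaks showed the same order, with 11.1 to 12.1% in 3'UTRs in nuclear mock, 37.1 to 45.3% in cytoplasmic mock, 18.2 to 20.7% in nuclear arsenite and 23.5 to 25.3% in cytoplasmic arsenite libraries. Intron tags were at 1067 ± 22.7 CPM in nuclear mock and 656 ± 46.3 in cytoplasmic mock libraries, and 3'UTR tags at 294.5 ± 16.9 and 578.9 ± 48.1. The 3'UTR tags of these genes stood between 515.4 and 578.9 CPM on average in the 3 groups other than nuclear mock. The genes made up 0.735% of all nuclear mock 3'UTR tags but 0.365% of the cytoplasmic mock ones, and 0.579% and 0.575% of the intron tags.

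Single genes were tested on sums of the peaks of 1 gene and 1 class, called features. Of the 380 features of these genes, 74 had a mean of at least 5 tags per fraction library and were tested, 27 of 118 3'UTR and 40 of 151 intron features, 5 ncRNA and 2 Other. They belong to 59 genes, so that 119 genes were too sparse to test. Differences are log2 of CPM plus 0.888, from 1 limma fit of the 12 fraction libraries, with Benjamini-Hochberg adjustment over all 9238 features tested. A feature was called at an adjusted p under 0.05.

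In mock cells the introns of these genes carried more HuR tags in the nucleus and the 3'UTRs more in the cytoplasm. Of the 40 intron features 16 were higher in the nucleus and 0 lower, and of the 27 3'UTR features 15 were lower in the nucleus and 0 higher. With the ncRNA and Other features, 36 of the 74 were called, 21 higher and 15 lower. Among all features tested 64.3% were called, 33.3% higher and 31% lower. Of all intron features 55.3% were called higher and 1.82% lower, so that the 16 of 40 were no more frequent than the background. Of all 3'UTR features 84.4% were called lower and 0.931% higher, against 15 of 27 lower here. The median intron difference was 0.72 and that of all introns 0.71. The median 3'UTR difference was -1.06, smaller than the -1.80 of all 3'UTR features. ZNF genes of the other chromosomes were close to this, with 26 of 39 3'UTR features lower and a median of -1.15, while the other genes of chromosome 19 had 80 of 93 lower and a median of -1.75. These medians are descriptions and the gap between the lists was not tested. At an unadjusted p under 0.05 the count was 44. All tested features had a median of 0.35 in this comparison, and centred on it 9 of these features were higher and 21 lower, with TMM factors 14 and 17, and with DESeq2 7 and 14.

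**Figure D2:**
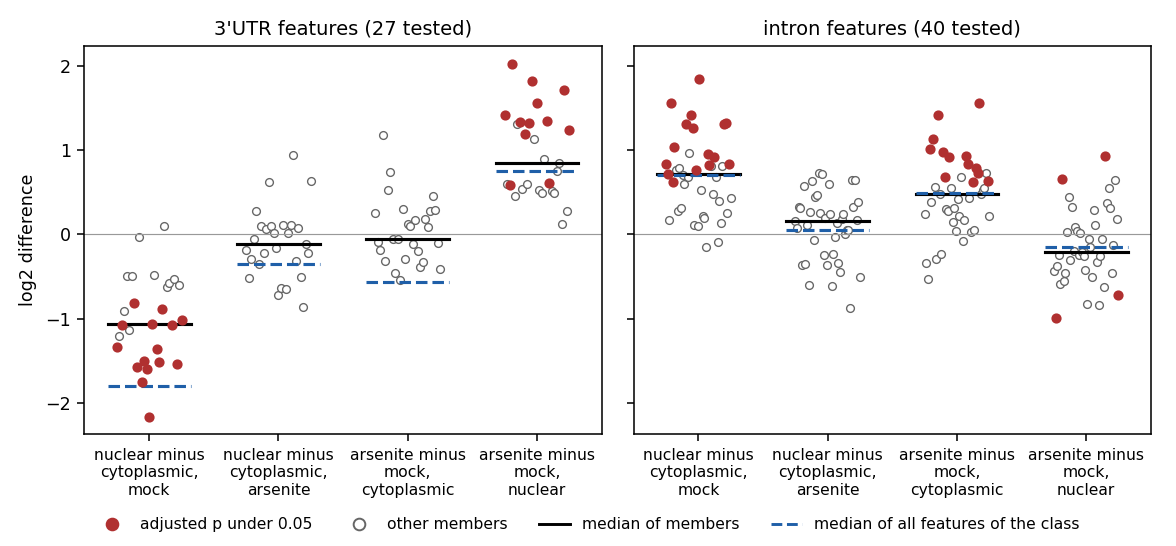
Log2 differences of the tested features of the 178 genes (27 3'UTR and 40 intron, points) in 4 comparisons of the fraction libraries, with the median of these genes and that of all features of the class. In mock cells 26 of the 27 3'UTR features lie below 0 and 38 of the 40 intron features above 0, and after arsenite both classes lie around 0.

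ZNF566 had the largest intron difference. Its introns were at 11.7, 14.5 and 10.6 CPM in the nuclear mock libraries and 3.19, 3.06 and 2.11 in the cytoplasmic mock libraries. Every nuclear library lay above every cytoplasmic one, by 1.84 on the log2 scale (SE 0.411, limma adjusted p = 0.000199). ZNF235 introns had 45.2, 39.1 and 38.6 CPM in the nucleus and 8.51, 21.4 and 12.7 in the cytoplasm, a difference of 1.56 (SE 0.242, adjusted p = 8.32e-07). The lowest nuclear library was thus well above the highest cytoplasmic one. ZNF493 introns followed (21.9, 13.6 and 17.4 against 4.25, 5.09 and 9.49, log2 difference 1.41, adjusted p = 0.000326). ZNF787 introns had the fourth largest difference at 1.32 (adjusted p = 0.00417), from 17.5, 12.7 and 11.6 against 11.7, 3.06 and 3.16. Its groups overlapped by 1 library, and DESeq2 gave it an adjusted p of 0.118, the highest of 15 alternatives that otherwise kept the call.

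ZNF91 introns, the feature with most tags of the set (2267), were measured with the smallest error. They had 194, 159 and 190 CPM in nuclear mock libraries and 101, 94.7 and 108 in cytoplasmic mock libraries. The groups did not overlap, and the log2 difference was 0.83 (SE 0.131, adjusted p = 1.16e-06). ZNF254 was higher in the nucleus in both of its main classes, by 1.04 in introns (adjusted p = 0.000226) and by 0.71 in ncRNA peaks (adjusted p = 0.00223). ZNF93 introns stood apart from ZNF91 in that the libraries of a group scattered, with 30.6, 52.7 and 49.2 in the nucleus and 51.1, 20.4 and 30.6 in the cytoplasm. The difference of 0.43 was not called (adjusted p = 0.139).

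Among the 3'UTRs, ZNF561 had the largest difference but few tags. It was at 0, 0.909 and 1.93 CPM in the nuclear mock libraries and at 6.38, 8.15 and 5.27 in the cytoplasmic ones, a log2 difference of -2.16 (SE 0.509, adjusted p = 0.000384). ZNF507 had 2.91, 6.36 and 3.86 in the nucleus and 13.8, 16.3 and 19 in the cytoplasm (log2 difference -1.75, SE 0.339, adjusted p = 2.99e-05). In both genes the fractions were fully separated. ZNF460 was similar, with 5.83, 11.8 and 7.72 against 25.5, 24.4 and 28.5 (log2 difference -1.58, SE 0.275, adjusted p = 6.02e-06). ZNF557 had 0, 1.82 and 3.86 against 6.38, 5.09 and 6.33 (-1.59). It reached the mean of 5 tags only with the cytoplasmic mock libraries. The filter thus favoured a difference, which makes its values a description. It is 1 of the 15 3'UTR features counted as lower, and the other 14 reached that mean without their higher group.

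**Figure D3:**
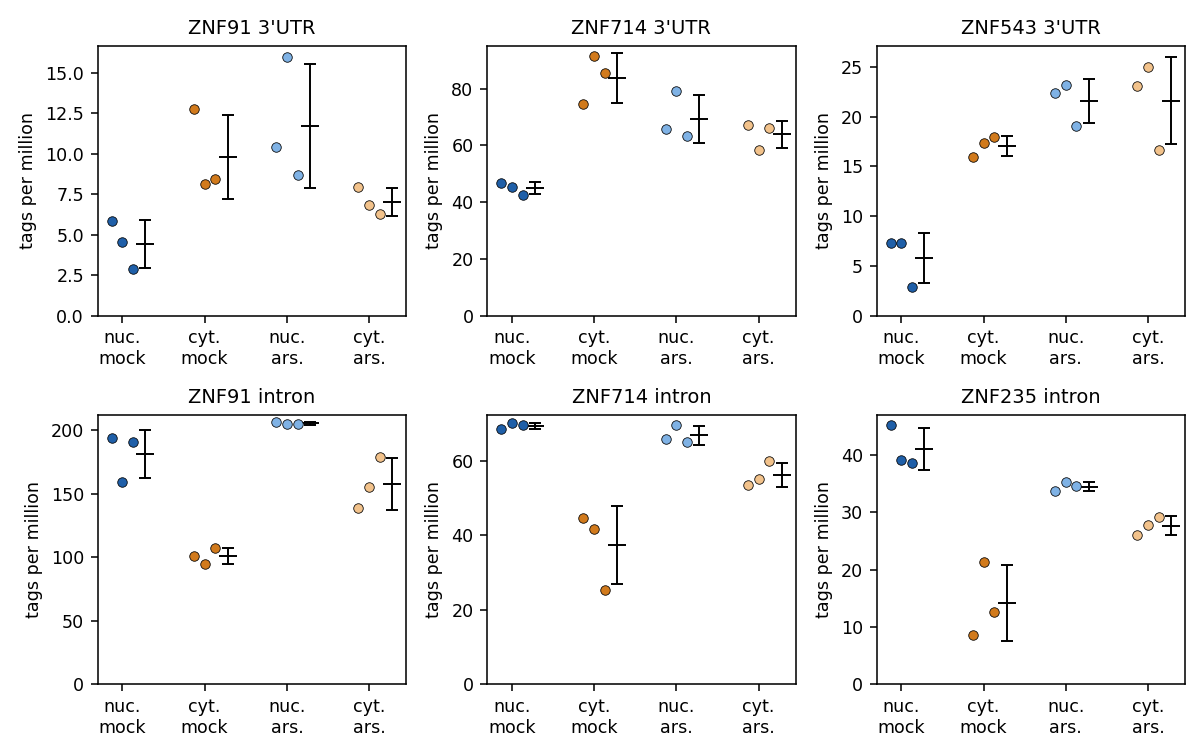
CPM in each fraction library (points, 3 per group) with the group mean and SD (bars) for the 3'UTRs of ZNF91, ZNF714 and ZNF543 and the introns of ZNF91, ZNF714 and ZNF235. The intron and 3'UTR features of ZNF714 are opposed in mock cells, 69.3 against 37.2 in introns and 44.9 against 83.8 in the 3'UTR on average.

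The contrast between classes was also present within genes. ZNF714 introns had 68.5, 70.0 and 69.5 CPM in nuclear mock libraries and 44.7, 41.8 and 25.3 in cytoplasmic mock libraries, a log2 difference of 0.92 (SE 0.184, adjusted p = 4.84e-05). Its 3'UTR had 46.6, 45.5 and 42.5 in the nucleus and 74.5, 91.7 and 85.4 in the cytoplasm, a difference of -0.89 (SE 0.165, adjusted p = 1.72e-05). Neither pair of groups overlapped. In ZNF91 the 3'UTR was at 5.83, 4.55 and 2.90 against 12.8, 8.15 and 8.44 (-1.02, adjusted p = 0.0170), opposite to its introns. The ZNF91 3'UTR call was lost without nuclear mock replicate 3 (adjusted p = 0.0824) and without cytoplasmic mock replicate 1. In all, 9 genes had both classes tested, namely ZNF66, ZNF91, ZNF100, ZNF431, ZNF507, ZNF562, ZNF714, ZNF726 and ZNF780B. The signs of intron and 3'UTR were opposite in 9 of 9, and the 3'UTR was the lower one in 8, with a median gap of -1.81. ZNF726 was the exception, at 0.10 in the 3'UTR and -0.10 in introns, neither of them called.

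**Figure D4:**
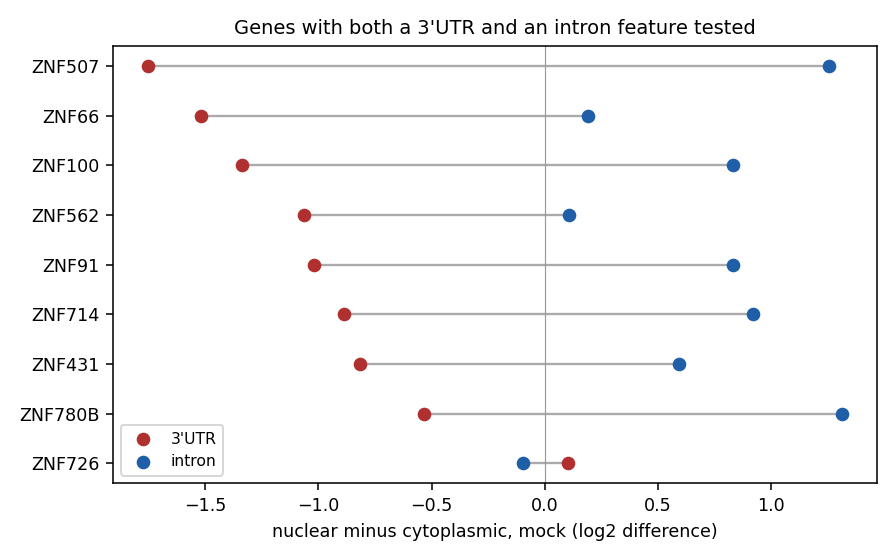
Nuclear minus cytoplasmic log2 difference in mock cells for the 3'UTR and the introns of the 9 genes in which both were tested. The 3'UTR point lies left of the intron point in 8 genes, and ZNF726 has both points near 0.

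In the cytoplasm 13 of the 40 intron features had more HuR tags with arsenite, about the share among all introns, and none of the 3'UTRs was called. Over all 74 features the count of higher ones fell from 14 to 6 when the values were centred and to 1 with DESeq2. Of the 74 features 14 were higher in cytoplasmic arsenite than in cytoplasmic mock libraries and 0 were lower. Among all features 35.9% were called, with 21.6% of all features higher and 14.3% lower. The 14 were 13 introns, of 40 tested, and the Other feature of ZNF254. Introns as a whole were called higher in 34.7% and lower in 1.92% of cases, near the 13 of 40. None of the 27 3'UTR features was called, whereas 35.8% of all 3'UTR features fell and 2.09% rose. The median 3'UTR difference was -0.05 against -0.57 for all 3'UTR features, -0.20 in ZNF genes of other chromosomes (8 of 39 lower) and -0.43 in the other genes of chromosome 19 (28 of 93 lower). The intron median of 0.48 was that of all introns to within 0.01. At an unadjusted p under 0.05 the count was 18.

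The called introns included the genes with most tags. ZNF91 introns rose from 101, 94.7 and 108 to 139, 155 and 179 CPM (log2 difference 0.63, SE 0.131, adjusted p = 0.000267). ZNF254 introns rose from 13.8, 9.17 and 17.9 to 25.3, 35.2 and 29.9 (1.13, SE 0.234, adjusted p = 0.000248). ZNF235 introns rose from 8.51, 21.4 and 12.7 to 26.0, 27.9 and 29.2 (1.01, SE 0.242, adjusted p = 0.00119). In each of these 3 genes all arsenite libraries exceeded all mock libraries. ZNF714 introns rose by 0.62 (adjusted p = 0.00789), and here too the groups did not overlap, while the ZNF714 3'UTR went from 74.5, 91.7 and 85.4 to 67.1, 58.6 and 66.1 without a call (-0.38, adjusted p = 0.0649). Of the 13 introns called, 2 reached the mean of 5 tags only with the cytoplasmic arsenite libraries, which favours a difference. Without these 2, 11 remain. The 2 are ZNF761 (1.57) and ZNF429 (1.41), whose mock libraries scattered, at 3.19, 0 and 8.44 and at 6.38, 3.06 and 0 CPM. Their values are a description.

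The count in the cytoplasm depended on scaling and on single libraries. It was 9 without cytoplasmic mock replicate 2, cytoplasmic mock replicate 3 or cytoplasmic arsenite replicate 3. All tested features had a median of 0.21 in this comparison. Centred on it, 6 of these features were higher and 1 lower, with edgeR's TMM factors 5 and 3, and with DESeq2 1 and 1. The ZNF254 intron call was kept in all 15 alternatives, and those of ZNF235 and ZNF91 introns in 14 of 15.

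In the nucleus the features that rose with arsenite were mostly 3'UTRs. All 27 3'UTR features had positive differences between nuclear arsenite and nuclear mock libraries, from 0.12 to 2.03, and 12 were called higher. Of the 40 intron features 2 were higher and 2 lower. In all 14 of the 74 were higher and 2 lower, beside 20.9% called among all features, 16.1% higher and 4.81% lower. All introns were called higher in 2.33% and lower in 6.32% of cases. All 3'UTR features were called higher in 40.9% and lower in 1.89% of cases, near the 12 of 27, and had a median of 0.75, against 0.84 here, 0.57 in other ZNF genes and 1.11 in the other genes of chromosome 19. The intron median was -0.20 (-0.15 for all introns), and 25 features had an unadjusted p under 0.05.

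The ZNF543 3'UTR rose from 7.29, 7.27 and 2.90 to 22.4, 23.2 and 19.1 CPM (log2 difference 1.82, SE 0.300, adjusted p = 1.07e-05). Its arsenite libraries lay above all mock libraries, and the call held in all 15 alternatives. ZNF561 (1.56, adjusted p = 0.0233) had 0 tags in 1 mock library, and its call was lost without nuclear mock replicate 1 or nuclear arsenite replicate 2 (adjusted p up to 0.160). Of the 12 3'UTR features called, 2 reached the mean of 5 tags only with the nuclear arsenite libraries, which favours a difference. Without these 2, 10 remain. The 2 are ZNF260, with 0, 1.82 and 0.966 in mock and 8.01, 4.0 and 6.06 after arsenite (2.03), and ZNF791 (1.71). Their values are a description. The ZNF91 3'UTR rose from 5.83, 4.55 and 2.90 to 10.4, 16 and 8.66 (1.24, adjusted p = 0.0134), and lost its call without nuclear mock replicate 3 or nuclear arsenite replicate 2 (adjusted p up to 0.105).

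The 4 called introns were split. ZNF726 introns rose from 13.1, 17.3 and 16.4 to 31.2, 36.0 and 25.1 CPM (0.94, SE 0.250, adjusted p = 0.00508), without overlap, and rose in the cytoplasm as well (0.79, adjusted p = 0.0120). ZNF254 introns rose from 32.1, 25.5 and 27.0 to 44.0, 44.0 and 46.8 (0.66, adjusted p = 0.0380). ZNF146, which encodes a protein made of zinc fingers without a KRAB domain, had introns at 26.2, 26.4 and 21.2 in mock and 12, 8.0 and 17.3 in arsenite libraries (-0.99, SE 0.301, adjusted p = 0.0147). The ZNF146 groups did not overlap, but the call was lost without nuclear mock replicate 2 or nuclear arsenite replicate 2 (adjusted p up to 0.125). ZNF93 introns fell from 30.6, 52.7 and 49.2 to 17.6, 30.4 and 32.1 (-0.72, adjusted p = 0.0407), with overlap of 1 library. The ZNF93 call was lost without nuclear mock replicate 2 or 3 or nuclear arsenite replicate 1 (adjusted p up to 0.302). ZNF91 introns were not called in the nucleus (0.19, adjusted p = 0.356), where they stood at 194, 159 and 190 in mock and 207, 205 and 204 in arsenite libraries. Without nuclear arsenite replicate 2, 10 of the 74 features were called in the nucleus, and DESeq2 on all libraries called fewer still.

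After arsenite the fractions differed little on these genes. The fraction markers ACTB, NEAT1 and RPL23 and the 3'UTR part of all tags were also closer between these fractions. The markers GAS5 and SNHG1 stayed far apart. The part of all these in the result was not tested. A single feature of 74 was called, the ncRNA peaks of ZNF254, beside 9.94% of all features, 2.83% higher and 7.11% lower. They had 67.3, 68.8 and 42.4 CPM in nuclear arsenite and 32.5, 34.1 and 41.0 in cytoplasmic arsenite libraries (log2 difference 0.69, SE 0.199, adjusted p = 0.0180). The groups did not overlap, but the call was lost without either of nuclear arsenite replicates 1 and 2 or of cytoplasmic arsenite replicates 1 and 2 (adjusted p up to 0.139). Among all 3'UTR features 18.1% were lower and 1.73% higher in the nucleus, against 0 of 27 here, and among all introns 0.98% were lower and 1.96% higher. By limma without adjustment, 5 of the 74 had a p under 0.05. The 3'UTR median was -0.12 (-0.35 for all 3'UTR features) and the intron median 0.16 (0.05 for all introns). ZNF91 introns had an adjusted p of 0.0526 and a difference of 0.39, with 207, 205 and 204 against 139, 155 and 179.

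The change in the gap between fractions was tested as an interaction, the nuclear minus cytoplasmic difference in arsenite less that in mock libraries. It was positive and called for 7 of 27 3'UTR features and negative and called for 6 of 40 introns and the ncRNA peaks of ZNF730. These 14 of 74 stand beside 37.8% of all features, 21.4% higher and 16.4% lower, and 20 had an unadjusted p under 0.05. All 3'UTR features were called higher in 59.1% and lower in 0.128% of cases, and all introns lower in 28.6% and higher in 0.98%. The medians were 0.78 in 3'UTRs (1.40 for all, 0.96 in other ZNF genes, 1.74 in the other genes of chromosome 19) and -0.61 in introns (-0.65 for all). ZNF507 had the largest 3'UTR value, 1.86 (SE 0.479, adjusted p = 0.00255). Its 3'UTR stood at 2.91, 6.36 and 3.86 in nuclear mock, 13.8, 16.3 and 19 in cytoplasmic mock, 11.2, 11.2 and 13 in nuclear arsenite, and 12.3, 13.6 and 7.65 in cytoplasmic arsenite libraries. A separation in mock cells thus became an overlap after arsenite. ZNF460 (1.64, adjusted p = 0.00112) and ZNF543 (1.52, adjusted p = 0.00506) were the next of those kept in every alternative run. On the intron side ZNF235 had -1.25 (SE 0.342, adjusted p = 0.00421), from a nuclear to cytoplasmic mean of 41.0 to 14.2 in mock and 34.5 to 27.7 in arsenite libraries. The count was 9 without nuclear arsenite replicate 1 or cytoplasmic mock replicate 2.

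Genes with both classes tested followed the same pattern within the gene. The median gap between 3'UTR and intron differences in the 9 genes was -0.15 between the arsenite fractions, where it had been -1.81 in mock. For arsenite against mock the gap was -1.0 in the cytoplasm, with the 3'UTR below the intron in 7 of 9, and 0.95 in the nucleus, with the 3'UTR below in 1 of 9. The comparisons share libraries, so these values are not independent of each other.

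Single peaks were put to the same test, run over all peaks with tags in at least 3 of the 6 libraries compared. Between the mock fractions 3 of 891 peaks of these genes were called, beside 2.4% of all peaks (0.422% higher, 1.98% lower). The count was 5 with edgeR, 31 centred, 24 with the other filter, 73 with a pseudocount 4 times smaller, and 0 to 14 when a library was left out. A ZNF714 intron peak at chr19:21104622-21104642 (plus strand) had 21.9, 15.5 and 9.66 CPM in the nucleus and 4.26, 2.04 and 3.16 in the cytoplasm (log2 difference 1.96, SE 0.399, adjusted p = 0.0422). A ZNF235 intron peak at chr19:44292189-44292209 (minus strand) had 7.29, 3.64 and 6.76 against 0, 1.02 and 0 (2.37). Both were higher in every nuclear library. An ncRNA peak of ZNF701 at chr19:52558040-52558060 (plus strand) was the reverse, with 0, 0.909 and 0 in the nucleus and 7.45, 4.07 and 6.33 in the cytoplasm (-2.42). This peak lies outside the RefSeq span of ZNF701 (chr19:52570287-52600149) and within that of ZNF808 (chr19:52527668-52568753, plus strand). The ZNF235 and ZNF701 peaks passed the filter through their higher group alone, which favours a difference. Their values are thus a description, which leaves the ZNF714 peak. Each of the 3 lost its call in at least 2 of the 6 fits that left out a library (adjusted p up to 0.140).

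In the cytoplasm 22 of 1084 peaks were called between arsenite and mock, 20 higher and 2 lower, beside 3.64% of all peaks (2.74% higher, 0.893% lower). Leaving out any 1 library left 0 to 3 calls, edgeR made 4, and scaling to tags in peaks or centring left 1. For 16 of the 22 the call came from 1 tag in each arsenite library and 0 tags in the mock libraries. A ZNF254 peak of class Other at chr19:24079959-24079979 (plus strand) had 13 tags after arsenite and 0 in mock. Each of the 22 had tags in all 3 libraries of its higher group and in fewer than 3 of the lower one, and so passed the filter through the higher group alone. The filter favours a difference in such peaks, so that the count and the values of single peaks are a description. Of the rest, a ZNF776 3'UTR peak at chr19:57756864-57756884 (plus strand) had 7.94, 6.25 and 7.65 CPM after arsenite and 0, 1.02 and 2.11 in mock (log2 difference 2.26, adjusted p = 0.0472). An intron peak of ZNF91 at chr19:23365120-23365140 (minus strand) had 2.89, 4.55 and 7.65 against 0, 1.02 and 0 (2.31, adjusted p = 0.0472), and one of ZNF730 at chr19:23107896-23107916 (plus strand) had 2.89, 4.55 and 9.04 against 1.06, 0 and 0 (2.37, adjusted p = 0.0472). All arsenite libraries exceeded all mock libraries at these 3 peaks, and those of ZNF91 and ZNF730 had 1 tag each in the mock libraries. Lower after arsenite were a ZNF121 3'UTR peak at chr19:9565339-9565359 (minus strand), with 0, 1.14 and 0.696 against 7.45, 10.2 and 6.33 (-2.64, adjusted p = 0.0450), and a ZNF737 ncRNA peak (-2.13, adjusted p = 0.0472). The summed 3'UTR of ZNF121, with 13 peaks there, did not differ between cytoplasmic arsenite and mock (-0.19, adjusted p = 0.501). The calls of the ZNF776, ZNF91 and ZNF737 peaks were each lost in all 6 fits that left out a library, that of ZNF730 in 5 and that of ZNF121 in 4.

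No peak of these genes was called between the arsenite fractions (0 of 1266, beside 0.151% of all peaks; 135 at an unadjusted p under 0.05, and 2 by edgeR) or between nuclear arsenite and mock by limma (0 of 1085, beside 0.108%; 131 unadjusted, and 2 by edgeR).

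The captured libraries of the APEX lines were far shallower, with 519 to 86419 tags in peaks, and most of these genes could not be tested in them. The inputs varied widely, from 1353 to 484305 tags in peaks. The share of tags on these genes differed between library sets, which the labels name. For the NLS and NES lines it was 0.305 to 0.537% in set JL0388 and 0.0599 to 0.281% in set JL1024, without overlap. In the captured G3BP1 mock libraries it was 0.147 and 0.218% in set JL0388 and 0.352 and 0.402% in set JL1024. The JL0388 values rest on 1 and 4 tags of these genes. Their Wilson intervals, 0.026 to 0.83% and 0.085 to 0.56%, cover both JL1024 values, so no order of the sets is read there. In the other G3BP1 groups JL0388 lay above JL1024. The shares were 0.465 against 0.0739% (1 tag) in mock inputs and 0.465 against 0.400% in arsenite inputs. In captured arsenite libraries they were 0.468 and 0.384% against 0.355 and 0.116%. The 3'UTR part of the genes' tags was 13.2 to 26.1% in the 4 captured NLS mock libraries and 33.3 to 66.7% in the 4 captured NES mock libraries, which rest on 49 to 138 and on 3 to 15 tags of these genes per library. After arsenite it was 19.7 to 31.3% and 40.9 to 52.4%. The NLS and NES ranges did not overlap under either treatment. The 3'UTR part of all tags separated them in set JL0388 (10.3 to 13.1% in captured NLS and 34.7 to 44.8% in captured NES libraries over both treatments), but not in set JL1024, where it was 8.35 and 10.6% against 8.94 and 16.1% in mock and 13.7 and 15.7% against 11.1 and 15.5% after arsenite.

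**Figure D5:**
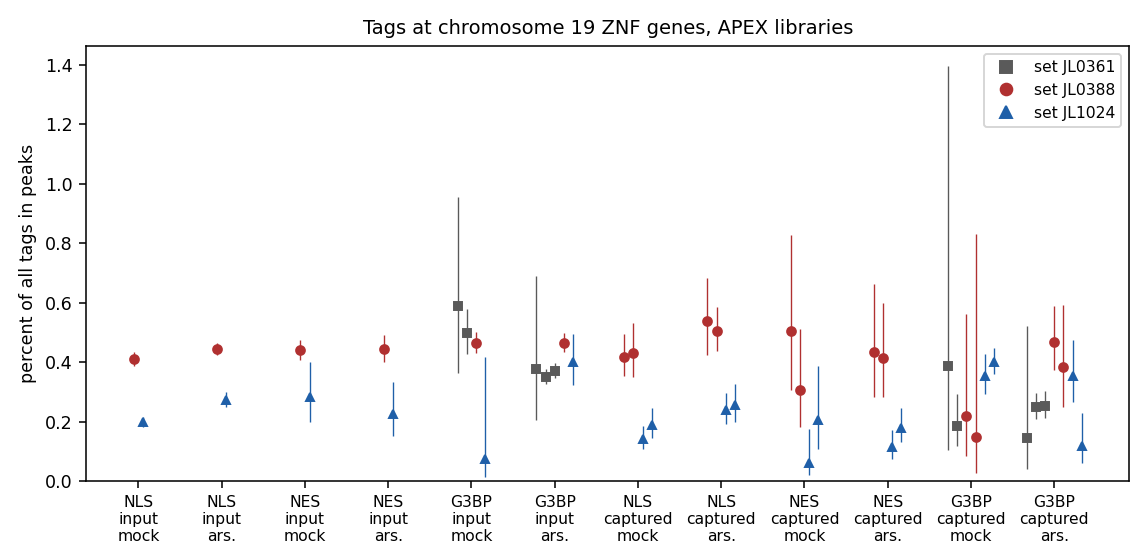
Percentage of all tags in peaks held by the 178 genes in each library of the APEX lines (points, with 95% Wilson intervals), by line, library kind and treatment, with the library set marked. The libraries of set JL1024 lie below those of set JL0388 for the NLS and NES lines.

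For captured NLS against NES, 3 features of these genes had at least 2 tags per library on average, the introns of ZNF91 and ZNF714 and the ZNF714 3'UTR. Both introns reached that mean through the NLS libraries alone after arsenite, which favours a difference, and their values there are a description. By limma 2 of the 3 had an adjusted p under 0.05, beside 34.6% of all features (33.9% higher, 0.691% lower) and 50.3% of all introns higher and 0.24% lower. ZNF91 introns had 83.2, 80.2, 11.5 and 46.5 CPM with NLS and 26.1, 26.2, 0 and 1.77 with NES (log2 difference 2.07, SE 0.586, adjusted p = 0.0114, library set as covariate). In each set both NLS libraries exceeded both NES libraries. ZNF714 introns had 97.1, 58, 9.55 and 5.81 with NLS and 0, 0, 0 and 1.77 with NES, which is 27 tags against 1 (2.87, SE 0.763, adjusted p = 0.00812). The ZNF714 3'UTR was not called (0.51, adjusted p = 0.553). All features together had a median of 1.26 in this comparison, and relative to it the adjusted p was 0.188 for ZNF714 and 0.403 for ZNF91 introns. Without NLS arsenite replicate 4 that of ZNF91 was 0.0705. In mock cells 0 of 3 were called by limma, beside 20.6% of all features (20.4% higher, 0.169% lower) and 24.4% of all introns higher, with 1 at an unadjusted p under 0.05 and 0 by edgeR. ZNF714 introns differed by 1.38 (adjusted p = 0.0846) and ZNF91 introns by 1.09 (adjusted p = 0.125).

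For 5 of 32 replicate pairs compared, all captured libraries of set JL0388, no difference from the partner beyond sampling noise was detected (permutation p from 0.072 to 0.785), among them the captured NLS pairs and the captured NES arsenite pair. These libraries are shallow, so that a difference could have been missed. With each such pair counted as 1 sample the intron differences after arsenite, a description as above, were 2.35 for ZNF714 and 2.25 for ZNF91.

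For G3BP1, captured and input libraries of the same line were compared after arsenite. ZNF91 introns had 0, 1.65, 13.3, 22.6, 0, 8.54 and 0 CPM in the 7 captured libraries and 58.6, 58.6, 53.9, 92.9 and 44.2 in the 5 inputs, so that every captured library lay below every input (log2 difference -2.56). By limma 6 of 34 features tested had an adjusted p under 0.05, all lower in the captured libraries, beside 15.8% of all features (15.6% lower, 0.24% higher). They were 5 of 17 introns, those of ZNF91, ZNF254 (-1.19), ZNF100 (-1.16), ZNF235 (-1.16) and ZNF431 (-0.94), beside 28.9% of all introns lower and 0.266% higher, and the Other feature of ZNF254 (-0.78). Each of the 6 passed the filter through the inputs alone, which favours a difference. The introns of ZNF100 and ZNF431 and the Other feature of ZNF254 had 0 captured tags. The counts and differences are therefore a description and nothing is read from them. The median intron difference was -0.91, and -0.99 for all introns. Depth moved with this comparison, with 1391 to 49736 tags in peaks in the captured and 2666 to 227274 in the input libraries, and its part in the result was not tested. Centred on the median of all features the count was 0, and over the fits that left out a library it ranged from 0 to 14. Between G3BP1 and NES captured arsenite libraries none of these genes had enough tags to be tested.

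Between arsenite and mock inputs of the 3 lines 0 of 56 features were called by limma, as were 0% of all 7870 features, with 2 of the 56 at an unadjusted p under 0.05 and 2 by edgeR. The median 3'UTR difference was 0.68, and 0.74 for all 3'UTR features.

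The partners of the KRAB proteins were taken from a list of 22 genes, of the TRIM28, SETDB1, HP1, NuRD and HUSH complexes and, beside these, ATRX, DAXX, SMARCAD1 and DNMT1. TRIM28 and SETDB1 themselves were not tested, as TRIM28 held 7 3'UTR and 0 intron tags and SETDB1 0 and 20 over all fraction libraries. The tested 3'UTRs were all lower in the nucleus in mock cells, 12 of 12 with a median of -2.15 beside 84.4% of all 3'UTR features, and 10 of their 13 tested introns were higher (median 0.87), beside 55.3% of all introns. With arsenite their 3'UTRs were lower in the cytoplasm in 7 of 12 and higher in 1 (median -0.78), beside 35.8% and 2.09% of all 3'UTR features. In the nucleus 6 of 12 were higher (median 0.75), beside 40.9% of all. The interaction was positive and called in 10 of 12 3'UTRs (median 1.71), beside 59.1% of all, and negative and called in 2 of 13 introns, beside 28.6%. ATRX, a chromatin remodeller at heterochromatin, had the smallest 3'UTR difference of the list between mock fractions, -0.66 (SE 0.203, adjusted p = 0.00517), and 0.81 in its introns (adjusted p = 8.42e-06). The difference between this list and the ZNF genes was not tested.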

How the data were processed

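The authors deposited 1 table of signal per peak for 58 HuR CLIP libraries, in which each value is a whole number of tags divided by a library total (whole within 0.01 tags for 100% of values). Per the submitters' processing notes, Bowtie2, SAMtools, bedtools and HOMER and the build GRCh38.p14 were used. The roles of these tools, the removal of duplicates and the placing of reads that match several genes are not given in the sources used here. Peaks and classes are the authors'. Whether coordinates count from 0 or 1 is not stated.

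Of 395471 lines 8257 repeats were dropped. Peaks were summed by gene and class, scaled to CPM of the deposited total, and tested on log2(value + pseudocount) with limma 3.58.1 (R 4.3.3, trend, two-sided, Benjamini-Hochberg over the whole table). The pseudocount was the median over libraries of 1 tag, 0.888 CPM in the fractions and 1.31 to 12.2 in the APEX tests, and fold changes of low features are understated. Features needed a mean of 5 tags per library in the fractions and 2 in the APEX tests, which had the library set (for inputs, line and set) as covariate. Alternatives were edgeR 4.0.16 on recovered whole tags, DESeq2 1.42.0, other scalings, pseudocounts and filters, a replicate block and leaving out each library. Fits were tested on simulated data. There limma found few of the changes made in the peak, input and G3BP1 tests, so that its counts of 0 there say little. For the inputs edgeR found most of them. Of 100 changes of 2-fold, limma found 39 to 52 between fraction groups and 20 in the interaction. For NLS against NES it found 18 in mock and 3 in arsenite libraries. Features without a call in these tests may thus have changed by that much.

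The named genes are the 12 with the highest level, up to 4 called features in each direction and fraction test, up to 2 in APEX and 3 in peak tests, and ZNF91, ZNF93, ZNF274, ZNF350 and ZNF331. The text also gives other features of these genes, features called in several tests and the 3'UTR peaks with most tags. The genes and lists were chosen with earlier results of these data known. No sequences were printed, since no genome of this build was used here.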

Additional observations from a re-analysis of the deposited data

Results flagged for a closer look

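The gap between the fractions differed between mock and arsenite cells for 14 features, by the interaction in limma with Benjamini-Hochberg adjustment. The values are log2 differences, nuclear minus cytoplasmic, arsenite less mock. In 3'UTRs they were 1.86 for ZNF507, 1.65 for ZNF91, 1.64 for ZNF460, 1.52 for ZNF543, 1.16 for ZNF100, 1.00 for ZNF714 and 0.78 for ZNF121. In introns they were -0.67 for ZNF714, -0.93 for ZNF93, -0.98 for ZNF253, -1.16 for ZNF493, -1.17 for ZNF69 and -1.25 for ZNF235, and the ncRNA peaks of ZNF730 had -1.40. The calls of ZNF507, ZNF460, ZNF543 and ZNF235 held in all 19 alternatives, while that of ZNF493 held in 8 of 19 and that of ZNF93 in 9 of 19 (adjusted p up to 0.174).

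In 2 groups a library stood apart in the part of these genes' tags that lay in 3'UTRs. It was 100% in captured G3BP1 mock replicate 1, which held 2 tags on these genes among 519 in peaks (95% Wilson interval 34.2 to 100%). It was 80.0% in G3BP1 input arsenite replicate 1, which held 10 such tags (49.0 to 94.3%). Groups of 4 to 7 libraries were examined in this way, and chance sets apart about 1 library in 20 groups.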

How the results depend on the processing

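Among the named features that were called, none reversed in the alternatives run. The count of called features in the mock fractions (36) became 55 with features kept by libraries above 0 and 21 with DESeq2. The split of 21 higher and 15 lower became 9 and 21 when centred on the median of all features (0.35), 14 and 17 with TMM and 7 and 14 with DESeq2. Between arsenite fractions (1) it was 3 with edgeR, 2 with a pseudocount 4 times larger, 2 scaled to tags in peaks, 2 centred, 3 with TMM and 2 with DESeq2. For arsenite in the cytoplasm (14) it was 7 centred, 8 with TMM and 2 with DESeq2, and in the nucleus (16) 5 with DESeq2. For captured NLS against NES after arsenite (2) it was 1 scaled and 0 centred. For G3BP1 captured against input (6) it was 16 with edgeR, 1 scaled, 0 centred, 1 with the other filter and 2 without libraries under 2000 tags. For inputs edgeR called 2. Of mock peaks (3) edgeR called 5, a pseudocount 4 times smaller 73 and 4 times larger 6, centring 31 and the other filter 24. Of peaks between arsenite fractions (0) edgeR called 2 and the other filter 5. Of cytoplasmic arsenite peaks (22) edgeR called 4, the smaller pseudocount 106, the larger 2, scaling 1 and centring 1. Of nuclear arsenite peaks (0) edgeR called 2 and the other filter 4. The ratio of shares (1.25) was 1.13 on the deposited totals, 1.78 in introns and 0.56 in 3'UTRs. The cause of these shifts was not tested.

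Leaving out 1 library gave 31 to 42 calls between mock fractions, 0 to 2 between arsenite fractions, 9 to 18 in the cytoplasm, 10 to 17 in the nucleus, 9 to 17 for the interaction, 0 to 0 and 1 to 2 for NLS against NES, 0 to 14 for G3BP1 against input, 0 to 0 for inputs and for G3BP1 against NES, and 0 to 14, 0 to 1, 0 to 3 and 0 to 2 for the 4 peak tests.

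Same-numbered fraction libraries did not deviate together (correlations from -0.11 to 0.06), so the numbers give no pairing. With the replicate number as a block the fraction counts were 38, 1, 15, 16 and 14, those of NLS against NES 0 and 2, and those of peaks 0, 1, 1 and 0.

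Depth limits these results, since 119 of 178 genes had no feature with enough tags and 5 libraries held under 2000 tags in peaks.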
